A study of Mus musculus with 8 samples.

Results

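Ms4a4a, Ms4a4c, Ms4a6b, Ms4a6c, Ms4a6d and Ms4a7 are 6 neighbouring mouse genes on chromosome 19, taken by name from tables that list 53342 genes. Their transcripts were measured in macrophages sorted from the infarcted heart of wild type C57BL/6 mice at postnatal week 8, with the heart taken 3 days after myocardial infarction. The cells were sorted as Ly6Chi or Ly6Clo, which differ in the surface protein Ly6C, and were then cultured for 24 hours with IL-21 at 100 ng/mL or without it. The 4 groups (Ly6Chi without IL-21, Ly6Chi with IL-21, Ly6Clo without IL-21, Ly6Clo with IL-21) each held 2 libraries, numbered 1 and 2 in the labels, and what a number stands for is not given there. The study also names mice deficient in the il21 receptor (il21r-/-), which are not analysed here. Nothing says that the 2 libraries of a group came from separate mice or cultures, so p-values measure the spread between these libraries, which may be technical.

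The membrane-spanning 4A family holds small proteins that cross the membrane several times and sit beside immune receptors, tuning how those receptors signal. Ms4a1 encodes CD20 of B cells and Ms4a2 encodes a chain of the mast cell IgE receptor, while several of the genes described here are known from macrophages and other myeloid cells. Ms4a4a associates with dectin-1, the fungal beta-glucan receptor encoded by Clec7a, and Ms4a7 is widely used as a macrophage marker. IL-21 is a T cell cytokine whose receptor signals mainly through the transcription factor STAT3.

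Each library was a 3' tag library, in which a transcript is read near its 3' end, so levels below are not divided by transcript length. Levels are in CPM, the counts of a gene scaled to a common library total. Each total was taken over the genes that passed a filter on low counts and was adjusted by the TMM method. Total counts per library over all genes lay between 224329 and 483593, and 3 counts corresponded to 6.204 to 13.4 CPM of these totals. On the scale used for the levels the same counts give slightly higher CPM. Of the macrophage markers, Cd68 was present in all 8 libraries at 1395 to 1701 CPM, Csf1r at 554 to 1146 CPM and Adgre1 at 546 to 1253 CPM, whereas Itgam was at 0 in all 8. The sort was visible in Ly6c2, the gene for Ly6C2, which was lower in Ly6Clo by a log2 fold change of -3.19 (SE 0.30, edgeR's quasi-likelihood test, adjusted p = 0.000837). Ccr2, a chemokine receptor gene of inflammatory monocytes, was at -0.25 (SE 0.61, edgeR adjusted p = 0.964). The B cell genes Ms4a1, Pax5 and Ighm were at 0 in all 8 libraries, and of 6 mast cell markers only Kit gave any count. Libraries of 1 group differed beyond counting noise, with a chi-square per degree of freedom of 2.41 to 4.05.

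In the GENCODE M21 annotation of GRCm38 the cluster spanned 284 kb of chromosome 19, from 11321039 to 11604849. Ms4a7 lies at 11321039 to 11336146 on the minus strand. Ms4a4a (11375523 to 11392790), Ms4a4c (11404770 to 11427246), Ms4a6c (11469366 to 11482192) and Ms4a6b (11516512 to 11531256) follow on the plus strand, and Ms4a6d closes the row at 11586604 to 11604849 on the minus strand. All 6 are protein-coding.

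The promoters of Ms4a6b and Ms4a6c are shown because they were the only pair among the members with an entry that shared long stretches of identical bases. In RefSeq (GRCm38.p6), 5 of the 6 members had an entry. The windows are the 250 bases before the start of each gene, read on the plus strand 5′ to 3′, at chr19:11518309-11518558 for Ms4a6b and chr19:11469118-11469367 for Ms4a6c. Capitals mark the 2 stretches of at least 15 identical bases, which add up to 72 bases with a longest stretch of 48.
Ms4a6b: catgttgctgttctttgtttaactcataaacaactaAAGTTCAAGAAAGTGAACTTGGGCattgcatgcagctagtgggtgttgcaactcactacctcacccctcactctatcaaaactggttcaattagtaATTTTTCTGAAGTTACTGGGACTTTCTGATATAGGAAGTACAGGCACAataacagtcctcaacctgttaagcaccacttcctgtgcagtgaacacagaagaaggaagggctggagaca
Ms4a6c: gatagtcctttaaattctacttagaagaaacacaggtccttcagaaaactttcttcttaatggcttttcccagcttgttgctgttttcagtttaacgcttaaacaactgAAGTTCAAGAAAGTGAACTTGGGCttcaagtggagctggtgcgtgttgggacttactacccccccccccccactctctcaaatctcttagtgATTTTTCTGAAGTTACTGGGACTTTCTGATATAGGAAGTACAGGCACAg
The RefSeq start of Ms4a6b lies inside the longer GENCODE gene model, while that of Ms4a6c lies next to the GENCODE start.

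Motifs were searched on both strands of the members' windows. The interferon-response pattern, GAAA, any 2 bases and GAAA again, had 0 matches in the windows of the 5 members, against 2.98% of 32851 RefSeq promoter windows of the same length, and the STAT pattern TTCNNNGAA also had 0, against 7.02%. The pattern AGGAAG, of the type bound by the macrophage transcription factor PU.1, was found in 29.5% of all windows. It occurred 3 times in Ms4a6b, 1 time in Ms4a6c and in none of the windows of Ms4a4a, Ms4a4c and Ms4a7. The match in Ms4a6c and 1 of those in Ms4a6b lie in the second capital stretch. A shorter form of the interferon-response pattern, GAAANNGAA, was added after the letters had been seen. It occurred 1 time in each of the printed windows, 206 bases before the start of Ms4a6b and 133 bases before that of Ms4a6c. Both matches fall in the first capital stretch. This shorter pattern was also in both windows of Ms4a7, which has 2 starts, in none of Ms4a4a and Ms4a4c, and in 7.13% of all windows.

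**Figure D1:**
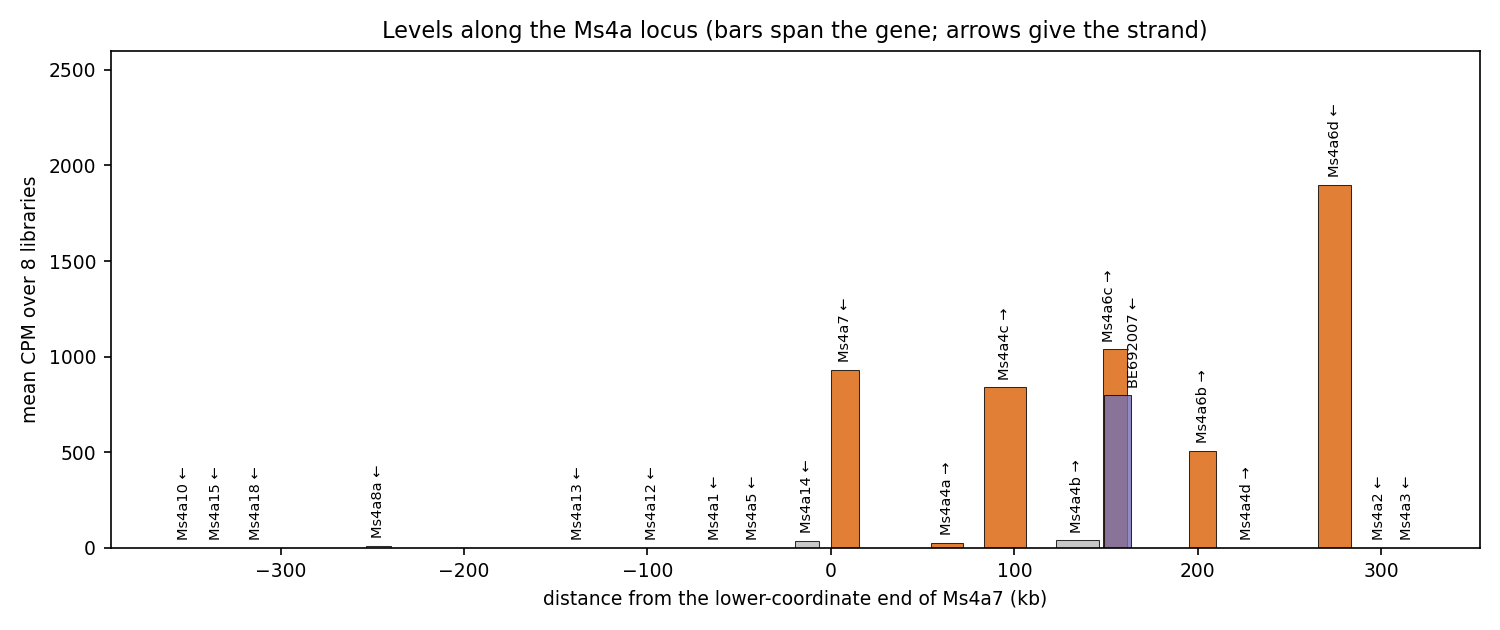
Mean CPM over the 8 libraries (vertical axis) of the members (orange), other Ms4a genes (grey) and the antisense transcript BE692007 (purple), drawn at their distance in kb from the lower-coordinate end of Ms4a7. Ms4a6d is the highest bar, and the flanking Ms4a genes are at or near 0.

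Ms4a6d was the most abundant member in 8 of 8 libraries and Ms4a4a the least abundant in 8 of 8. Summed, the 6 members took 0.261 to 0.634% of all counts of a library. Ms4a6d was 1.35 to 2.38-fold above the next member, and 32.6 to 142-fold above Ms4a4a. Ms4a6b was at rank 5 in 7 of 8 libraries, and Ms4a6c, Ms4a7 and Ms4a4c changed places in between. Among neighbours in the order of group means, the libraries of Ms4a6d did not overlap those of the next member in 3 groups and overlapped those of Ms4a7 in Ly6Clo without IL-21. Among Ms4a6c, Ms4a7 and Ms4a4c, each overlapped the next in the order in every group. Members further apart in the order could still be separate. In Ly6Chi with IL-21, Ms4a6c (1135 and 1632 CPM) lay above Ms4a7 (809 and 982 CPM). Ms4a6b lay apart from the member above it in both Ly6Chi groups and overlapped it in both Ly6Clo groups.

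**Figure D2:**
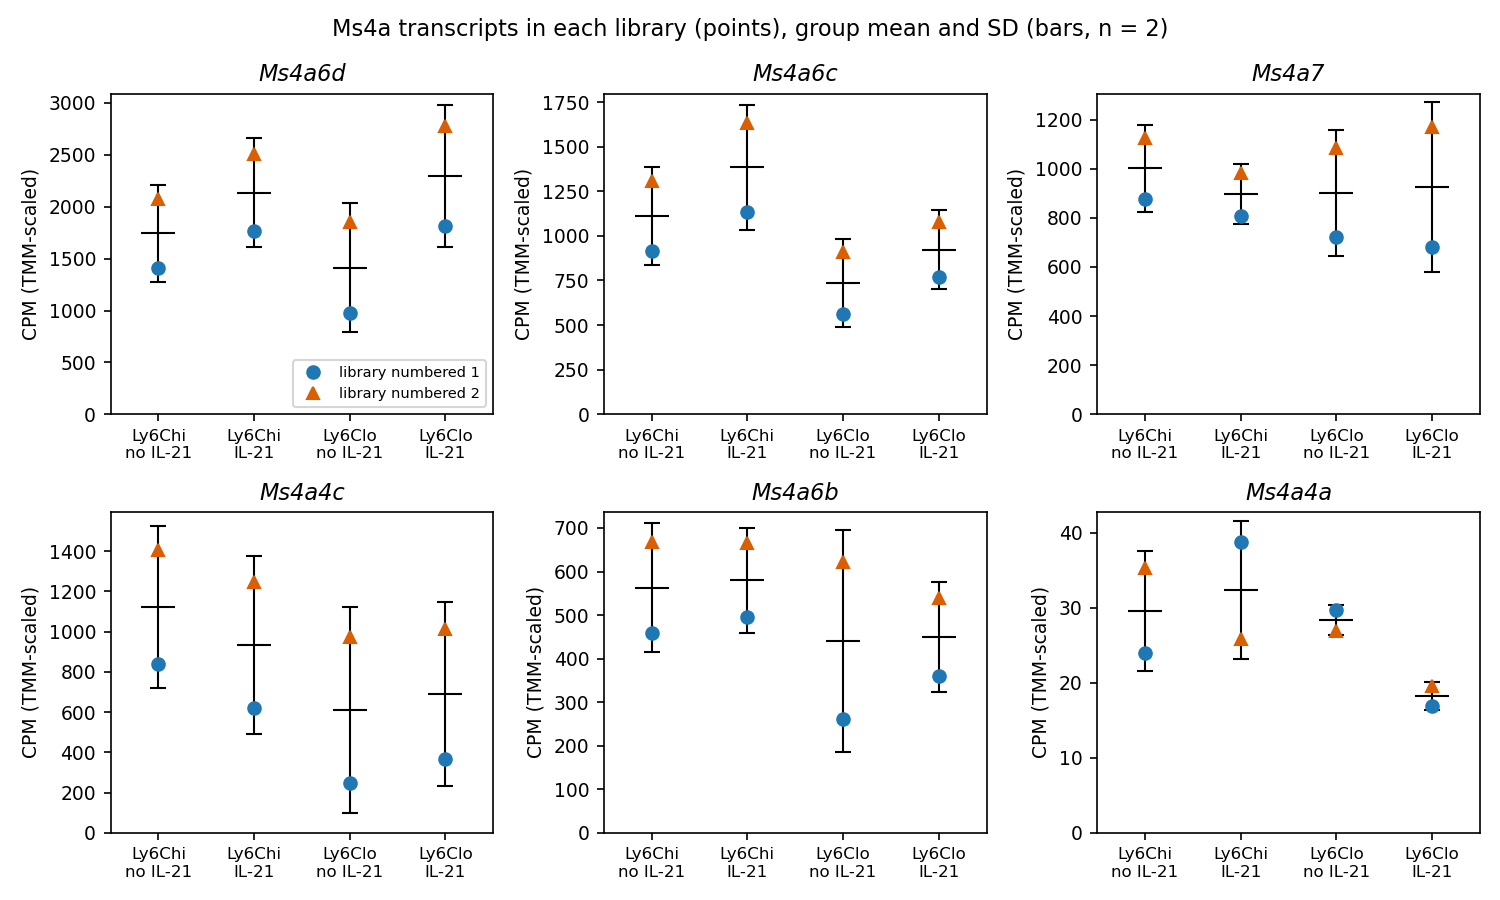
CPM of each member (vertical axis, separate linear scales) in the 4 groups, with circles for the libraries numbered 1, triangles for those numbered 2, and bars for the group mean and SD (n = 2). For every member except Ms4a4a the triangle lies above the circle in all 4 groups.

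Of the Ms4a6 genes, Ms4a6d encodes a protein of the macrophage surface. It stood at 1412 and 2076 CPM in Ly6Chi without IL-21 and at 1764 and 2509 CPM with IL-21, library 1 first. In Ly6Clo it stood at 972 and 1856 CPM without IL-21 and at 1810 and 2781 CPM with it. The values with IL-21 were the higher ones within each subset and number, although across numbers the groups overlapped.

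Ms4a6c was at 918 and 1307 CPM in Ly6Chi without IL-21 and at 1135 and 1632 CPM with IL-21. In Ly6Clo it was at 559 and 911 CPM without IL-21 and at 767 and 1079 CPM with it. The lowest libraries were Ly6Clo numbered 1 and the highest was Ly6Chi with IL-21 numbered 2. The counts of Ms4a6c cannot be taken as sense transcript alone. The noncoding BE692007 (minus strand, 11470166 to 11484578) shares 1088 of the 2050 exonic bases of Ms4a6c, and every 50-base stretch in the last 300 bases of Ms4a6c matches it on the opposite strand. BE692007 had 0.681 to 0.863 counts for each count of Ms4a6c in the 8 libraries. Whether the counting used strand is not given in the sources used here, so reads of these 2 transcripts cannot be told apart. A further 9.16% of those end stretches are identical to Ms4a6b.

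Ms4a6b was at 459 and 667 CPM in Ly6Chi without IL-21 and at 494 and 665 CPM with it. In Ly6Clo it was at 261 and 621 CPM without IL-21 and at 360 and 538 CPM with it. The groups overlapped, and the lowest value was in Ly6Clo without IL-21 numbered 1.

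Of the Ms4a4 genes, Ms4a4c had the widest range, from 247 to 1406 CPM. It was at 837 and 1406 CPM in Ly6Chi without IL-21, at 622 and 1245 CPM in Ly6Chi with IL-21, at 247 and 973 CPM in Ly6Clo without IL-21 and at 367 and 1015 CPM in Ly6Clo with IL-21. All 4 libraries numbered 1 lay below all 4 numbered 2. In its last 300 bases, 8.50% of 50-base stretches are identical to Ms4a4b or Ms4a4d, so some reads could be split between these copies.

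Ms4a4a, the dectin-1 partner, was close to the detection limit. It was at 23.9 and 35.3 CPM in Ly6Chi without IL-21, at 38.9 and 25.9 CPM in Ly6Chi with IL-21, at 29.8 and 27.0 CPM in Ly6Clo without IL-21 and at 16.9 and 19.6 CPM in Ly6Clo with IL-21. These values rest on 4.24 to 12.3 counts per library, so it did not pass the filter on low counts and is not among the 5 members tested below. In a fit of 17757 genes with no such filter, its log2 fold change was -0.23 (SE 0.43) for IL-21 averaged over subsets, -0.43 (SE 0.43) for Ly6Clo against Ly6Chi averaged over stimulation and 0.03 (SE 0.40) for libraries numbered 2 against 1. None of these passed (edgeR adjusted p = 1, 1 and 0.992). Over the total counts of both libraries, Ly6Clo with IL-21 held 16.8 CPM (exact 95% Poisson interval 8.69 to 29.4) and Ly6Clo without IL-21 held 25.6 CPM (15.4 to 40.04). The intervals overlap, and they cover counting error only.

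Ms4a7 ranged from 680 to 1170 CPM. It was at 876 and 1127 CPM in Ly6Chi without IL-21, at 809 and 982 CPM in Ly6Chi with IL-21, at 721 and 1083 CPM in Ly6Clo without IL-21 and at 680 and 1170 CPM in Ly6Clo with IL-21. No group stood apart from the others.

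The first comparison asked whether 24 hours of IL-21 changed the cluster. With edgeR's quasi-likelihood test over 5256 genes, 0 of the 5 tested members passed an adjusted p of 0.05 in Ly6Chi (background 0.019% of genes) and 0 of 5 in Ly6Clo (background 0.133%). Averaged over both subsets it was 0 of 5 (background 0.171%), and for the difference between the subsets' responses 0 of 5 (background 0%). At an unadjusted p under 0.05 the count was also 0 of 5 in each, where 3.52% of genes were reached in Ly6Chi, 3.52% in Ly6Clo, 5.33% averaged and 1.75% for the difference. DESeq2 and limma-voom called 0. The stimulation itself was visible in Arg1, which encodes arginase 1 and had an averaged log2 fold change of 1.84 (SE 0.16, edgeR's quasi-likelihood test, adjusted p = 7.2e-05). Socs3, a feedback inhibitor induced by STAT3, had 2.77 (SE 0.31, adjusted p = 0.00062 in the same edgeR fit).

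Ms4a6d had the largest averaged IL-21 difference of the members, a log2 fold change of 0.49 (SE 0.24, unadjusted p = 0.0602, edgeR adjusted p = 0.953). Its log2 fold change was 0.29 (SE 0.34) in Ly6Chi and 0.69 (SE 0.33) in Ly6Clo, and the difference between these, 0.40 (SE 0.47), did not pass (edgeR adjusted p = 1). Within libraries of the same number, Ms4a6d with IL-21 was 1.25 and 1.21-fold its level without IL-21 in Ly6Chi, and 1.86 and 1.498-fold in Ly6Clo. It was thus higher in 4 of 4 same-number comparisons, as was Ms4a6c at 1.24, 1.25, 1.37 and 1.18-fold, and 9.87% of all tested genes were higher in 4 of 4. For Ms4a6c the averaged log2 fold change was 0.32 (SE 0.20, edgeR adjusted p = 1), and that of the overlapping BE692007 was 0.34 (SE 0.18, edgeR adjusted p = 0.996). In a fit that held the library number as a replicate block, Ms4a6d passed, at 0.51 averaged (SE 0.10, edgeR adjusted p = 0.00496) and 0.72 in Ly6Clo (SE 0.14, edgeR adjusted p = 0.00777). That fit called 60 of all 5256 tested genes averaged and 29 in Ly6Clo, against 9 and 7 without the block. The labels do not say whether same-numbered libraries are paired.

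The IL-21 differences of Ms4a4c had opposite signs in the subsets, and none passed a test. Within number 1 and number 2 it was at a log2 difference of -0.43 and -0.17 with IL-21 in Ly6Chi, and of 0.57 and 0.06 in Ly6Clo. The fitted difference between the subsets was 0.44 (SE 1.18, edgeR adjusted p = 1). Its sign, and that of the fold change in each subset, turned when 1 library was left out. Over all alternatives the log2 fold change ran from -0.86 to 0.16 in Ly6Chi and from -0.75 to 1.52 in Ly6Clo, and their difference from -0.48 to 1.80. Ms4a6b and Ms4a7 had averaged log2 fold changes of 0.02 (SE 0.27) and -0.06 (SE 0.20).

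The make-up of the summed members gave a view that does not depend on the scaling of a library. Ms4a6d made up 31.2 and 31.4% of the members' counts in Ly6Chi without IL-21 and 36.3 and 35.5% with it. In Ly6Clo it made up 34.8 and 33.9% without IL-21 and 45.2 and 42.1% with it. All 4 libraries with IL-21 (35.5 to 45.2%) lay above all 4 without it (31.2 to 34.8%). No rate over all genes was computed for such a separation. In CPM the Ms4a6d libraries overlapped, at 1764 to 2781 with IL-21 and 972 to 2076 without it. Ms4a7 took 17.0 to 25.8% without IL-21 and 13.9 to 17.7% with it, and these ranges overlap. The shares of Ms4a4a, Ms4a4c, Ms4a6b and Ms4a6c overlapped as well. Such shares show unequal levels among the members and not which member changed. They were computed after the levels had been seen and are given with no test.

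**Figure D3:**
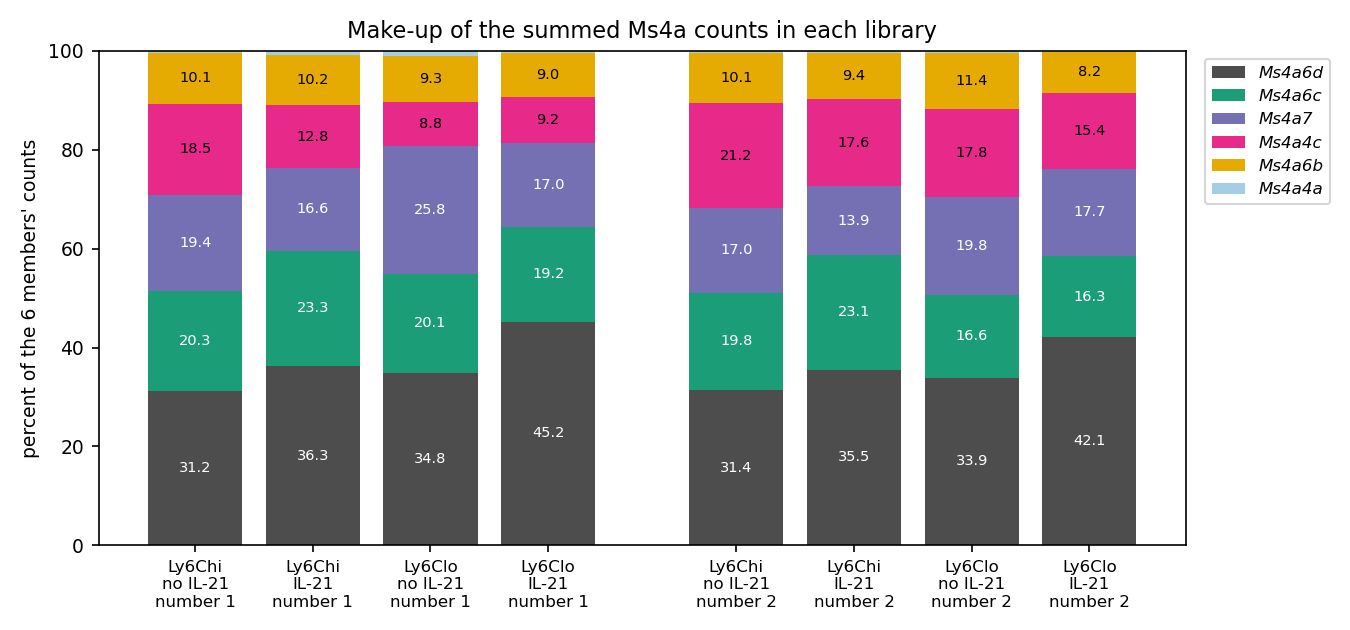
Percent of the 6 members' summed counts taken by each member (vertical axis) in the 8 libraries, libraries numbered 1 on the left and numbered 2 on the right. The Ms4a6d share is 31.2 to 34.8% without IL-21 and 35.5 to 45.2% with it. The shares were computed after the levels had been seen and were not tested.

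The second comparison set Ly6Clo against Ly6Chi macrophages. Without IL-21, 0 of 5 members passed edgeR's quasi-likelihood test (background 0.0381% of genes), with IL-21 0 of 5 (background 0.019%), and averaged over stimulation 0 of 5 (background 0.19%). DESeq2 and limma-voom called 0 as well. At an unadjusted p under 0.05 the count was 0 of 5 without IL-21 (4.53% of genes), 0 of 5 with it (5.27%) and 1 of 5 averaged (7.78%), which was Ms4a6c. The members' median log2 fold change was -0.33 without IL-21 and -0.35 with it, beside medians over all tested genes of 2.33e-05 and -0.0055.

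Ms4a6c was lower in Ly6Clo by an averaged log2 fold change of -0.58 (SE 0.20, unadjusted p = 0.0128, edgeR adjusted p = 0.49). BE692007, whose reads cannot be told apart from it, was at -0.64 (SE 0.18, edgeR adjusted p = 0.241). Ms4a4c was at -0.63 (SE 0.59) and Ms4a6b at -0.34 (SE 0.27), with edgeR adjusted p = 0.884 and 0.824. All 3 members were lower in Ly6Clo in 4 of 4 same-number comparisons, which held for 11% of tested genes. The inverse fold for Ms4a4c ranged from 3.38 in number 1 without IL-21 to 1.23 in number 2 with it, while that of Ms4a6c stayed between 1.43 and 1.64. With the number as a replicate block, Ms4a4c passed at -0.75 averaged (SE 0.14, edgeR adjusted p = 0.00374) and -1.01 without IL-21 (SE 0.20, edgeR adjusted p = 0.0193), and Ms4a6c at -0.59 averaged (SE 0.10, edgeR adjusted p = 0.000748). That fit called 132 of all 5256 tested genes averaged and 31 without IL-21, against 10 and 2 without the block.

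Ms4a6d and Ms4a7 had averaged log2 fold changes of -0.09 (SE 0.24) and -0.04 (SE 0.20), with no common direction over the 4 same-number comparisons. The neutrophil marker list also moved with the subset. Its summed level was 1403 to 2335 CPM in Ly6Chi and 641 to 1262 CPM in Ly6Clo libraries. Most of that sum was Mmp8 (537 to 2152 CPM). S100a8 (45.7 to 139 CPM) and Csf3r (20.6 to 42.2 CPM) were present in all 8 libraries, Cxcr2 had 5.5 counts in all and S100a9 had 2, and Ly6g and Retnlg were at 0 in all 8. Of the 7 neutrophil markers 2 were tested and 0 passed for the subset. Its part in the Ms4a levels was not tested.

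**Figure D4:**
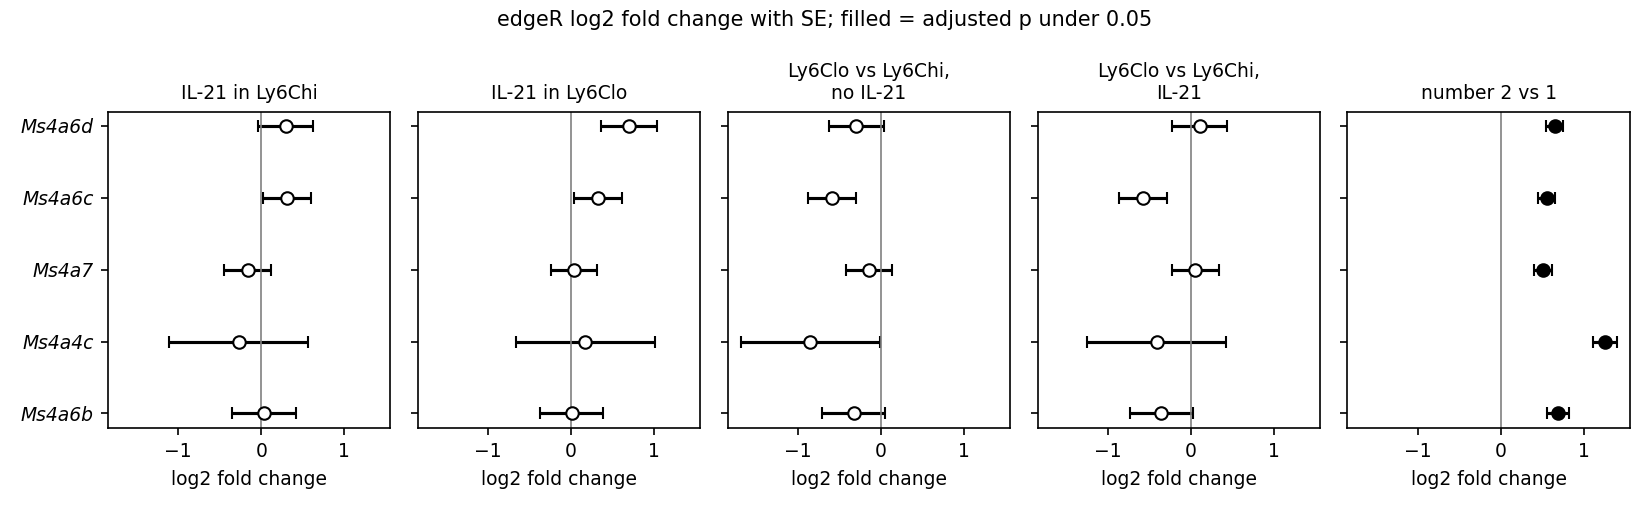
edgeR log2 fold change (horizontal axis) with its SE for the 5 tested members in 5 comparisons, with filled points for an adjusted p under 0.05. The points are filled only in the comparison of libraries numbered 2 with those numbered 1, where they run from 0.51 to 1.25. That comparison comes from a fit with a term for the number and the other 4 from a fit without it, so SEs and calls are not comparable between them. With the number as a replicate block, Ms4a6d passed for IL-21 in Ly6Clo and Ms4a4c for the subset without IL-21.

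The third comparison was between library numbers within the groups. Here 5 of the 5 tested members were higher in the libraries numbered 2 (edgeR's quasi-likelihood test with a term for the group). In the same comparison 8.2% of all tested genes were called in either direction, 4.6% as higher. Ms4a4c had a log2 fold change of 1.25 (SE 0.15, edgeR adjusted p = 5.28e-06). Ms4a6b had 0.69 (SE 0.13, edgeR adjusted p = 0.00097), and Ms4a6d had 0.65 (SE 0.10, adjusted p = 7.42e-05 by edgeR). Ms4a6c had 0.55 (SE 0.10, edgeR adjusted p = 0.000638) and Ms4a7 had 0.51 (SE 0.11, edgeR adjusted p = 0.00337).

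All 5 were higher in 4 of 4 groups, which held for 14.5% of tested genes. For 4 of them, Ms4a6c being the exception, the 4 libraries numbered 2 did not overlap the 4 numbered 1, which held for 5.84% of tested genes. The call for Ms4a7 was lost with DESeq2 (adjusted p = 0.0503) and without any 1 of the 4 Ly6Clo libraries (edgeR adjusted p = 0.0576 to 0.102). Ms4a4a showed no common direction, being higher in number 2 in 2 of 4 groups.

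The number difference of Ms4a4c was larger in Ly6Clo than in Ly6Chi. By group, number 2 over number 1 was 1.68-fold in Ly6Chi without IL-21, 2.00-fold in Ly6Chi with IL-21, 3.93-fold in Ly6Clo without IL-21 and 2.76-fold in Ly6Clo with IL-21. The fitted log2 difference was 0.87 (SE 0.13) in Ly6Chi and 1.70 (SE 0.15) in Ly6Clo. These differed by 0.83 (SE 0.20, edgeR adjusted p = 0.0455), in a test added after the values had been seen, in which 0.59% of all tested genes were called. The call was lost under DESeq2 (adjusted p = 1) and with RLE factors (edgeR adjusted p = 0.0539). It was also lost without either Ly6Chi library without IL-21, without either Ly6Clo library without IL-21 and without Ly6Clo with IL-21 numbered 1 (edgeR adjusted p = 0.0953 to 0.531). The difference itself stayed between 0.59 and 1.13 when any 1 library was left out. Both Ly6Clo libraries numbered 2 were deeper than all others, at 444670 counts with IL-21 and 483593 without it. The others held 224329 to 287131 counts. The part of depth in this difference was not tested. The corresponding differences for Ms4a6b (0.41, SE 0.22), Ms4a7 (0.36, SE 0.17), Ms4a6d (0.23, SE 0.17) and Ms4a6c (0.07, SE 0.17) did not pass.

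**Figure D5:**
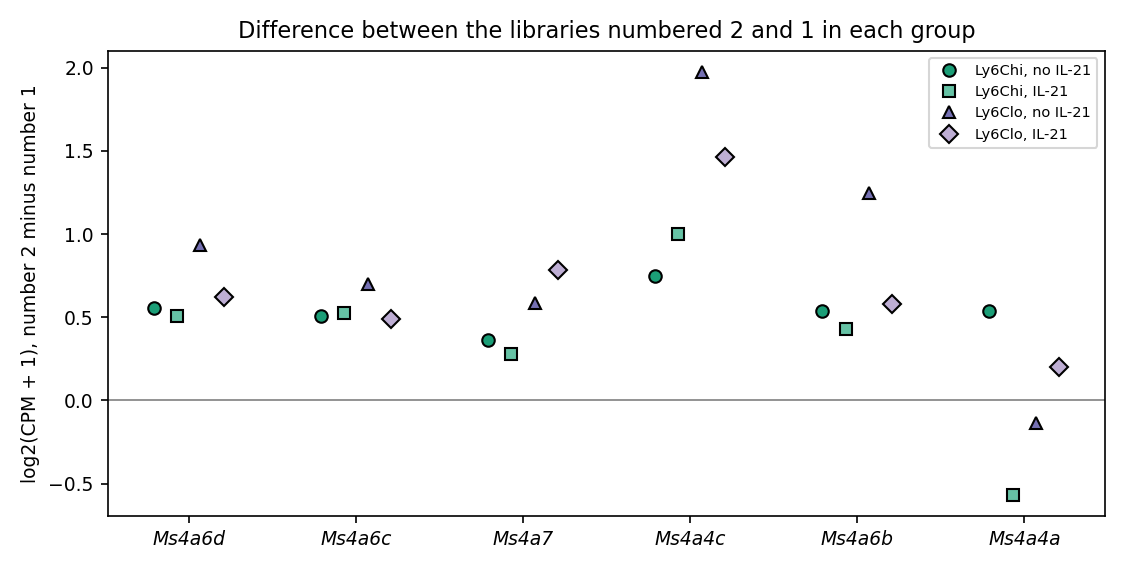
Difference in log2(CPM + 1) between the library numbered 2 and the library numbered 1 (vertical axis) for each member, 1 symbol per group. All 20 points of the 5 tested members are above 0, and Ms4a4c in Ly6Clo lies highest.

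Other genes moved with the library number beside the Ms4a cluster. Of 51 genes of an interferon-stimulated list, 50 were tested and 47 had a higher value in number 2. By edgeR's test 30 rose and 0 fell, where 4.6% of all tested genes were called as higher. The list's median log2 fold change was 0.59 beside -0.0037 over all genes. The ubiquitin-like modifier Isg15 had 1.06 (SE 0.10), the GTPase Iigp1 had 2.11 (SE 0.25) and Ly6a, which encodes the surface protein Sca-1, had 0.84 (SE 0.10), all with edgeR adjusted p of at most 2.34e-06. The summed level of the list was 19079 to 31801 CPM in number 1 and 34504 to 45233 CPM in number 2. With IL-21 averaged over subsets, 26 of the 50 were higher and 24 lower, and 0 passed. In Ly6Clo 45 of the 50 were lower than in Ly6Chi on average, and 0 passed. Their median log2 fold change there was -0.31, beside 0.0033 over all tested genes, of which 0.19% were called.

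Macrophage markers went both ways with the number. Lyz2, the gene for lysozyme, fell by 0.86 on the log2 scale (SE 0.12, edgeR adjusted p = 3.06e-05) and the growth factor receptor gene Csf1r fell by 0.67 (SE 0.11, edgeR adjusted p = 0.000201). The Fc receptor gene Fcgr1 rose by 0.65 (SE 0.11, edgeR adjusted p = 0.000294). The summed macrophage list was 8039 to 11536 CPM in number 1 and 6808 to 7051 CPM in number 2. Lyz2 was the largest part of that sum, at 2489 to 6773 CPM. The neutrophil list was at 1240 to 2335 CPM in number 1 and 641 to 1699 CPM in number 2. Mmp8, the neutrophil collagenase gene, fell by 0.74 with the number (SE 0.11, edgeR adjusted p = 4.6e-05). Of the 5 endothelial markers Kdr was tested and rose by 1.34 (SE 0.19, edgeR adjusted p = 2.5e-05). The list's sum was 64.4 to 139 CPM in number 1 and 190 to 343 CPM in number 2. Nearly all of that sum was Kdr, with 397.5 counts over the 8 libraries. Vwf had 6.56 counts, Pecam1 3 and Cdh5 2, and Tie1 was at 0 in all 8. Among 6 tested genes of Ly6Clo and resident macrophages, the mannose receptor gene Mrc1 fell by 1.23 (SE 0.16, edgeR adjusted p = 6.05e-06) and Apoe by 0.37 (SE 0.10, edgeR adjusted p = 0.024). Among 7 tested Ly6Chi monocyte genes, Plac8 rose by 1.85 (SE 0.31, edgeR adjusted p = 0.000205) and Hp fell by 1.91 (SE 0.44, edgeR adjusted p = 0.0249). The part of these differences, or of depth, in the Ms4a levels was not tested. In such bulk libraries fewer cells of a type and less RNA per cell cannot be told apart.

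Genes whose level followed each member most closely were taken by Pearson's r of log2 CPM over the 8 libraries, among 2921 other genes. The points share the library number and depth, so r is a description only. For Ms4a4c they were the interferon-inducible GTPase gene Tgtp1 (0.989), Gm4070 (0.987) and Ifit2 (0.983), and its closest member was Ms4a6b (0.967). For Ms4a6b they were the guanylate-binding protein gene Gbp2 (0.975), Blvrb, which encodes biliverdin reductase B (0.973), and Tgtp1 (0.972). For Ms4a6c they were Dtx3l (0.988), the caspase gene Casp8 (0.983) and the interferon-inducible Ifi204 (0.966).

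For Ms4a6d they were the chemokine gene Ccl4 (0.985), the galectin gene Lgals8 (0.976) and Fcgr4, an Fc receptor gene (0.973). For Ms4a7 they were Esd (0.977), Htatip2 (0.969) and the cathepsin gene Ctsz (0.967). Ms4a6c, Ms4a6d and Ms4a7 shared none of their 3 genes with another member, while Ms4a4c and Ms4a6b shared Tgtp1. Between pairs of members r ran from 0.626, for Ms4a6c and Ms4a7, to 0.967.

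Most of the rest of the family was not detected. Of 18 further family genes listed, Ms4a1, Ms4a2, Ms4a3, Ms4a5, Ms4a10, Ms4a12, Ms4a13 and Ms4a18 were at 0 in all 8 libraries. Ms4a19 and Ms4a20, found under older symbols, were at 0 too, and Ms4a6e was not matched. Ms4a4b, a gene of T cells that lies between Ms4a4c and Ms4a6c, had 19.99 to 58.9 CPM, while the T cell markers Cd3e, Cd3d, Trac and Lck had 1 to 1.7 counts each over the 8 libraries and Cd3g had 0. Ms4a14 had 12.5 to 49.6 CPM, Tmem176a 0 to 52.7 CPM, Tmem176b 0 to 36.2 CPM and Ms4a8a 0 to 19.9 CPM. Ms4a4b and Ms4a14 passed the filter, and neither was called in any comparison.

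Receptors and adaptors linked to the family were set beside it. Of 8 such genes 5 were tested, and 0 passed edgeR's test for IL-21 or for the subset. Clec7a, the dectin-1 gene, had an averaged IL-21 log2 fold change of -0.88 (SE 0.31, edgeR adjusted p = 0.767), and it fell by 0.78 in the libraries numbered 2 (SE 0.19, edgeR adjusted p = 0.0113), where the tested members rose. Trem2, a lipid receptor gene of macrophages whose soluble product is linked to the human MS4A locus, had 0.57 in Ly6Clo against Ly6Chi (SE 0.17, edgeR adjusted p = 0.317). Of 65 genes within 500 kb of the cluster 11 were tested. Called with the number were BE692007 (0.37, SE 0.11, edgeR adjusted p = 0.0345) and the noncoding AW112010 (1.17, SE 0.32, edgeR adjusted p = 0.0453), both higher in number 2, and 0 were called for IL-21 or the subset. Of all tested genes 8.2% were called with the number. Reads of BE692007 cannot be told apart from those of Ms4a6c, so its call is not separate from that of Ms4a6c.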

How the data were processed

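The authors deposited estimated counts per Ensembl gene in the sample files, as 53.3 to 59.7% of values above 0 are not whole numbers. Per the labels' protocols the libraries were QuantSeq 3' FWD with molecular identifiers, made from 2.5 ng of total RNA and read as 75 bases single-end. The submitters' processing notes name mm10 and DESeq2. For the aligner, the counter and any use of strand or identifiers, the tools and settings were not given in the sources used here. Of 53342 IDs, 53237 matched GENCODE M21.

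Counts were rounded and fitted with edgeR 4.0.16 (R 4.3.3): TMM scaling, a filter at a count of 10 (5256 genes kept, 5 of the 6 members), 4 group means over all 8 libraries, robust quasi-likelihood F tests, Benjamini-Hochberg adjustment over all genes, threshold 0.05. The number comparison added a term for the number. Alternatives were DESeq2 1.42.0, limma 3.58.1 (voom), RLE and total-count scaling, other filters, unrounded values, the replicate block and leaving out each library. CPM used unrounded counts.

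Named were the 6 members, family genes with at least 10 counts, the 3 genes closest to each tested member by r (mean count at least 20, prior count 2), up to 3 genes per list by p, neighbours within 500 kb and the references Ly6c2, Ccr2, Arg1 and Socs3. Cd68, Csf1r, Adgre1, Itgam and the other marker genes named singly were chosen after their values were seen. Members and lists were chosen with earlier results of these data known.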

Additional observations from a re-analysis of the deposited data

Results flagged for a closer look

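The number difference of Ms4a4c (libraries numbered 2 over 1) differed between the subsets, by 0.83 on the log2 scale (SE 0.20, edgeR's quasi-likelihood test, adjusted p = 0.0455), being larger in Ly6Clo. It stood on the same side of 0 in all 15 other fits, but passed in 5 of 7 with other settings (adjusted p 0.00611 to 1) and in 3 of 8 that left out a library (adjusted p 0.00361 to 0.531). Both Ly6Clo libraries numbered 2 were deeper than all others, and the part of depth was not tested.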

How the results depend on the processing

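Whether same-numbered libraries are paired is not given in the labels. The number differences of the groups correlated at 0.234 to 0.412 over 5256 genes in all 6 pairs of groups. Part of the number difference was thus common to the groups, which does not show whether libraries are paired. When the number entered the fit as a replicate block, the members called went from 0 to 1 for IL-21 in Ly6Clo, from 0 to 1 for IL-21 averaged, from 0 to 1 for the subset without IL-21 and from 0 to 2 for the subset averaged. Over all 5256 tested genes the calls went, in the same order, from 7 to 29, from 9 to 60, from 2 to 31 and from 10 to 132. Under the block Ms4a6d had an IL-21 log2 fold change of 0.72 in Ly6Clo (SE 0.14, edgeR adjusted p = 0.00777) and 0.51 averaged (SE 0.10, adjusted p = 0.00496). Ms4a4c was lower in Ly6Clo by -1.01 without IL-21 (SE 0.20, edgeR adjusted p = 0.0193) and -0.75 averaged (SE 0.14, adjusted p = 0.00374), and Ms4a6c by -0.59 averaged (SE 0.10, edgeR adjusted p = 0.000748). Without the block the averaged IL-21 value of Ms4a6d was 0.49 (SE 0.24). The averaged subset values were -0.63 (SE 0.59) for Ms4a4c and -0.58 (SE 0.20) for Ms4a6c. For these averaged values the block changed the SEs more than the fold changes. The cause of the number difference was not tested.

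Every other alternative left 0 members called for IL-21 and for the subset. For the number comparison 4 to 5 members were called when a library was left out and 4 to 5 under the other settings. Counts over all genes moved by more than 1.5 times: for IL-21 averaged 9, 5 to 15 without a library and 5 to 60 under other settings; for the subset averaged 10, 3 to 22 and 4 to 132; for the number 431, 177 to 419 and 128 to 443. With DESeq2 66.4% of genes called with the number were higher, against 56.1%, and for the subset averaged 11.1% against 50%. Ms4a4a, at 4.24 to 12.3 counts per library, was tested only in the fit without a filter, where it passed in none of the 8 comparisons.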
